A study of Mus musculus with 31 samples.

Results

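The 33 genes described here form a set of endogenous pluripotency genes, chosen by name from those known to be active in mouse embryonic stem cells, with the introduced reprogramming factors left out. They are 33 of the 29267 genes in the deposited tables, and all 33 were found there by symbol. RNA-seq had been done on mouse cells of the strain 129/OG2, a line known for a green fluorescent reporter under Pou5f1 control. Cells under reprogramming by OKSM (Pou5f1, Klf4, Sox2 and Myc) carried a Flag virus or a Tet1CD virus, were kept with DMSO, Vc (taken as vitamin C) or DKG, and were collected at day 3 or day 8, which gives 12 groups of 2 libraries. All 12 groups share OKSM, so no group shows a virus or compound without it, apart from 3 single libraries of fibroblasts kept for 3 days with DMSO, Vc or DKG. Untreated embryonic fibroblasts (MEF, passage 2) and embryonic stem cells (ESC) had 2 libraries each, the latter labelled passage 17 and 19. The labels give no dose and spell out neither Tet1CD nor DKG. They also do not say whether the viruses, the OKSM vector or its promoter differed between groups, or whether libraries of a group are separate cultures. All p-values below therefore rest on a spread that may be partly or wholly technical.

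The 2 libraries of a group carry the numbers 0824 and 0826, and their values are given in this order. For ESC the order is 0822, then 0819. Libraries held between 3953297 and 6818060 counts, and at that depth 3 counts, which a count of 0 can hide at most, amount to 0.412 to 0.825 CPM (TMM-scaled CPM). Such limits and the counting intervals given below cover counting error only, since the reads carry no molecular identifiers. The labels of the end points were checked on markers. Summed over 18 fibroblast genes such as Col1a1 and Thy1, MEF held 61134 and 57420 CPM and the 24 reprogramming libraries between 4428 and 12050 CPM. The ESC library 0822 held 17274 CPM of the same genes against 4525 CPM in 0819, and Col1a1 (type I collagen) alone reached 4269 CPM there against 28.5 CPM in 0819, so that library stands apart. Pou5f1, an introduced factor that cells also make themselves, was at 2.33 and 4.40 CPM in MEF and at 733 and 687 CPM in ESC.

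Pluripotency genes encode an interlocking circuit of transcription factors, among them Nanog, Esrrb, Klf2 and Tfcp2l1, that bind one another's regulatory regions and keep embryonic stem cells self-renewing. Around that circuit stand signalling genes of the FGF and Nodal pathways, germline and preimplantation genes such as the Dppa family, and metabolic or RNA-binding proteins that mark the state. In reprogramming, these genes are silent or low in fibroblasts and are switched on one after another, several of them late. Vitamin C is known as a cofactor for dioxygenases, including the TET enzymes that oxidise 5-methylcytosine and histone demethylases.

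Promoter windows of RefSeq (GRCm38.p6, 250 bases before to 50 after the start) were matched by symbol for 20 of the 33 genes. The octamer-type motif TTTGCAT, the core of what Pou5f1 is known to bind, was searched on both strands, as was the Sox-type motif CATTGT. The first was found in 3 of the 20 windows (15%), those of Nanog, Zfp42 and Zfp296, and in 4.63% of all 32851 windows. CATTGT was found in 3 of the 20 windows (15%), those of Nanog, Esrrb and Eras, and in 12.6% of all windows. The 3 windows with TTTGCAT are shown because the factors introduced into these cells are known to bind such letters, with both motifs in capitals.
Nanog: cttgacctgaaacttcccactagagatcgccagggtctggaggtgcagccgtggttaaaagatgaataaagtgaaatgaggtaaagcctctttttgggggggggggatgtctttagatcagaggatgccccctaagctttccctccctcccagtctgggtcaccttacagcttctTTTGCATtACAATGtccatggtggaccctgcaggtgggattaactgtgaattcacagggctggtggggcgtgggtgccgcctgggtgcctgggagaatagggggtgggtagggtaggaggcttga
Zfp42: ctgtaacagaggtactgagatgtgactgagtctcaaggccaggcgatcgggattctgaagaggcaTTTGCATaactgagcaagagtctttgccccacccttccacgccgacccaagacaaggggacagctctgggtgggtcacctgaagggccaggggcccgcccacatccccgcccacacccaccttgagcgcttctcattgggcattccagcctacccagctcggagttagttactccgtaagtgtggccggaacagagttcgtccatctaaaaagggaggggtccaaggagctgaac
Zfp296: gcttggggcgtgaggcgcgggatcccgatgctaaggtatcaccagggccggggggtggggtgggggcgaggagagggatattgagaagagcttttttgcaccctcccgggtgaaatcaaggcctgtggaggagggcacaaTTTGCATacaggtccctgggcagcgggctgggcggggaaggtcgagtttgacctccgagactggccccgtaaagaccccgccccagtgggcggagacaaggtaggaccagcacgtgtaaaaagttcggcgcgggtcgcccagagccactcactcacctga
The Nanog window is chr6:122707239-122707538 on the plus strand. Its TTTGCAT lies 75 to 69 bases before the start, and 1 base further on stands CATTGT read on the minus strand, 67 to 62 bases before the start. The Zfp42 window is chr8:43306960-43307259 on the minus strand, with TTTGCAT 185 to 179 bases before the start, and the Zfp296 window is chr7:19577037-19577336 on the plus strand, with TTTGCAT 110 to 104 bases before it. A match describes letters and not binding. The 3 genes with the motif did not share a time course below: Zfp296 was above 3 CPM in both Flag DMSO libraries of day 3, whereas Zfp42 stayed below 1 CPM in both Flag DMSO libraries of day 8.

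The span of each gene between fibroblasts and ESC was set first. Compared with MEF, 32 of the 33 genes were higher in ESC and none was lower (edgeR quasi-likelihood test, adjusted p under 0.05), in a comparison in which 52.4% of the 14914 genes tested were called. The genes had been listed for their activity in ESC, so this count describes the list. In MEF, 18 of the 33 genes had 0 counts in both libraries. Among them was Zfp42, a zinc finger gene also called Rex1, with 238 and 146 CPM in ESC (at least 621-fold higher, adjusted p = 1.61e-06). Dppa5a, which encodes an RNA-binding KH-domain protein, had 734 and 1475 CPM in ESC and none in MEF (at least 3590-fold higher, adjusted p = 2.08e-05). Both genes thus spanned the detection limit to a high level.

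Nanog (chromosome 6, 122707489 to 122714633 in mm10), the homeodomain factor at the centre of the circuit, was at 0.212 and 0.999 CPM in MEF and at 506 and 610 CPM in ESC, a log2 fold change of 9.77 ± 1.44 (SE, adjusted p = 3.82e-05). Esrrb (chromosome 12, 86361117 to 86521628), an orphan nuclear receptor, had 2 counts over both MEF libraries and 425 and 635 CPM in ESC, a 2580-fold ratio with a counting interval from 714 to 21300 (adjusted p = 2.18e-05). Tfcp2l1, a factor of the grainyhead family, rose by 9.56 ± 0.60 (adjusted p = 7.42e-09). The genes with the most counts in MEF were Klf2, Tbx3 and Klf5, with 391, 259 and 202, followed by Trim71 with 30 and Lefty1 with 25. Klf2, a Krüppel-like factor, was at 48.4 and 32.6 CPM in MEF and at 231 and 195 CPM in ESC (2.39 ± 0.45, adjusted p = 0.00033). Klf5, of the same family, differed by 2.76 ± 0.54 (adjusted p = 0.0005), and Tbx3, a T-box factor, by 2.85 ± 0.45 (adjusted p = 6.98e-05). Lefty1, an inhibitor of Nodal, differed by 3.40 ± 0.71 (adjusted p = 0.000774). Eras, a Ras-like protein first known from ESC, was the gene not called (2.33 and 0.574 CPM in ESC, 0 in MEF, adjusted p = 0.0905). Without ESC library 0822 the count was again 32, and without 0819 it was 31.

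The named genes of the other groups spanned similar distances. Among the signalling genes, Fgf4, an FGF ligand, was at least 624-fold higher in ESC (adjusted p = 1.65e-07), Tdgf1, the Nodal coreceptor also called Cripto, at least 666-fold (adjusted p = 0.000152), and Nodal itself at least 418-fold (adjusted p = 0.000103). Of the proteins outside these groups, Fbxo15, an F-box protein, was at least 702-fold higher (adjusted p = 7.34e-07) and Calcoco2, an autophagy receptor, at least 556-fold (adjusted p = 2.96e-07). Alpl, the tissue-nonspecific alkaline phosphatase long used to stain pluripotent colonies, rose by 9.22 ± 1.12 (adjusted p = 6.12e-06). Trim71, an RNA-binding protein of the let-7 circuit, rose by 6.04 ± 0.49 (adjusted p = 9.65e-08) and Zfp296, a zinc finger factor, by 6.43 ± 0.71 (adjusted p = 2.29e-06). A separate list of 25 pluripotency genes outside these 33, of which 24 were tested, had 23 higher and none lower.

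In ESC the genes spanned a wide range of levels per length. On the TPM scale, which divides by transcript length, Dppa5a led with 3815 ± 1641 TPM (SD, n = 2), followed by Alpl at 592 ± 368, Nanog at 496 ± 41.1, Tdh (threonine dehydrogenase, a mitochondrial enzyme on which mouse ESC are known to depend) at 395 ± 160, Fbxo15 at 298 ± 156 and Esrrb at 256 ± 54.7 TPM. From Alpl to Esrrb, neighbours in this order differed by less than the larger of their SDs, and none of these gaps was tested. The lowest were Sox15, an Sry-related factor, at 12.5 ± 3.69, Otx2 at 8.22 ± 7.67 and Eras at 2.82 ± 2.50 TPM. Several genes differed between the ESC libraries: Utf1 was at 59.5 and 10.5 CPM, Gbx2, a homeobox factor, at 32.4 and 4.98 CPM, and Otx2 at 2.33 and 13.2 CPM. Levels given below as a share of ESC rest on the mean of these 2 libraries and are least certain for these genes.

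**Figure D1:**
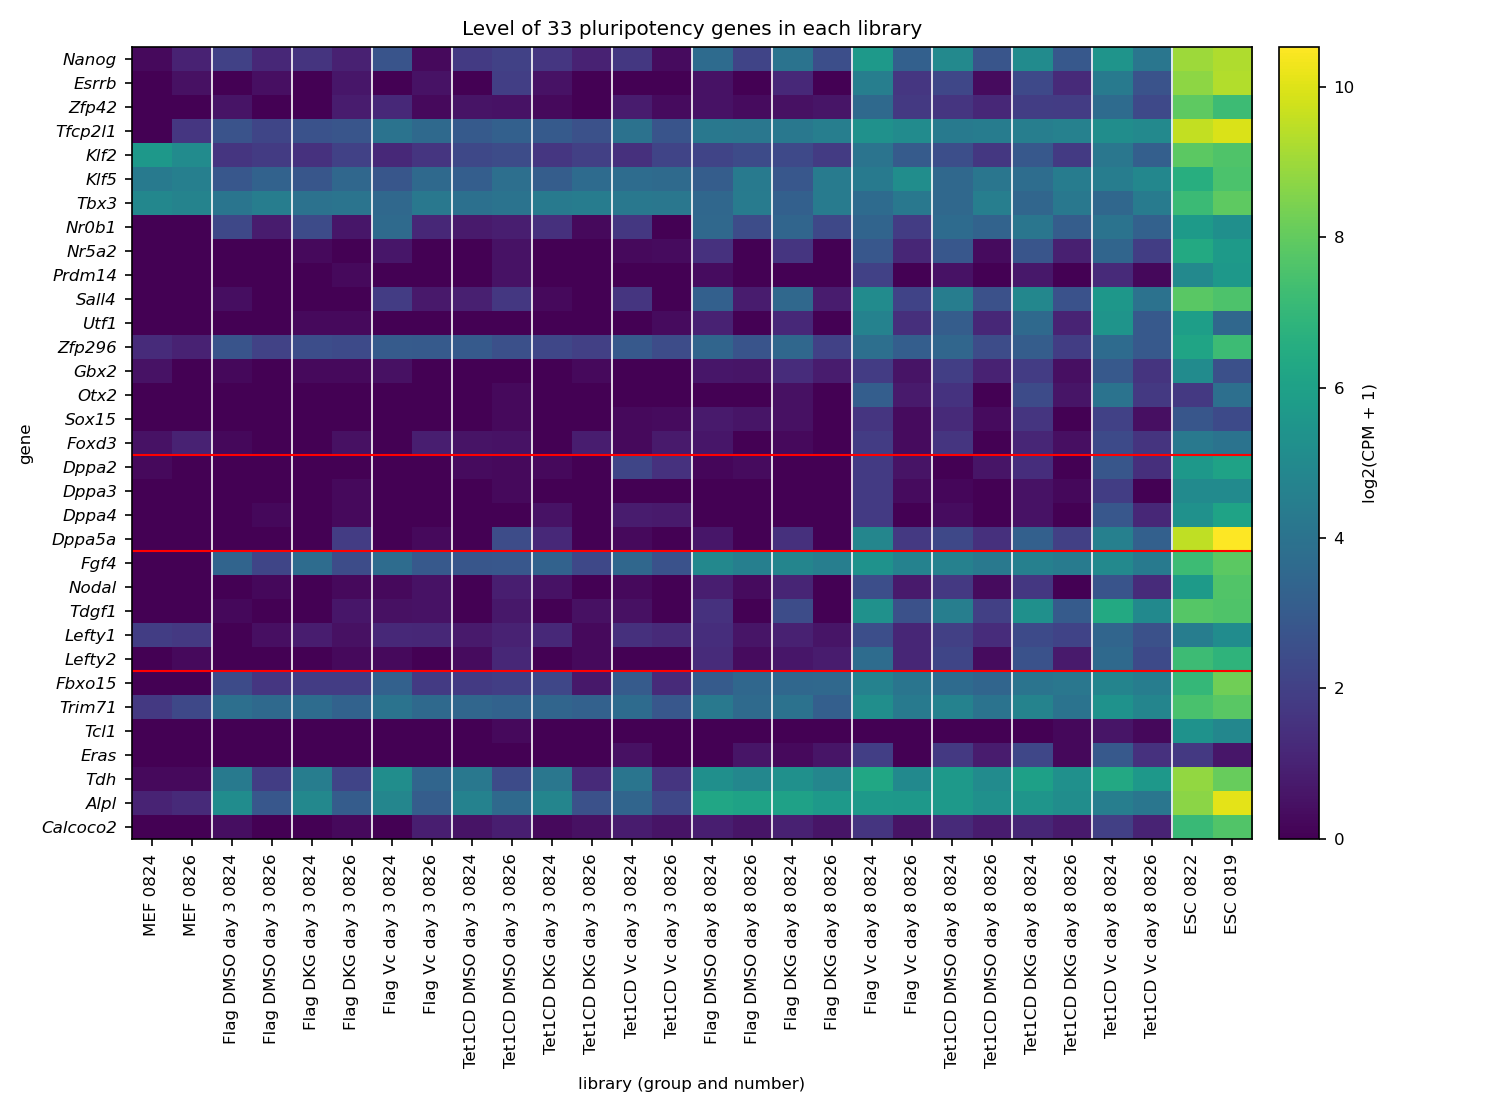
Level of each of the 33 genes (rows, grouped by role) in each of the 28 libraries of the 14 groups (columns, named by group and number), as log2(CPM + 1). The ESC columns are high in nearly all rows, MEF columns are high in Klf2, Klf5, Tbx3 and a few others, and at day 8 the libraries kept with Vc fill more rows than those kept with DMSO.

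The first step asked which genes had moved by day 3. Between MEF and Flag cells with DMSO at day 3, a comparison in which OKSM, virus, medium and time all differ, 6 of the 33 genes were higher and 2 lower, where 28.8% of all genes tested were called. The members' share was no higher than this background. Nanog (3.10 and 1.27 CPM at day 3) was not called, and Esrrb, Zfp42 and Dppa5a were at or below 0.49 CPM in both libraries.

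The genes that rose came from several roles. Fgf4 had 0 counts in MEF and 9.47 and 3.62 CPM at day 3 (at least 21.7-fold higher, adjusted p = 0.000415). Fbxo15 went from 0 to 4.25 and 2.17 CPM (at least 10.6-fold higher, adjusted p = 0.00592), and Tdh from 2 counts to 19.4 and 2.71 CPM, a 55.9-fold ratio with a counting interval from 15.2 to 466 (adjusted p = 0.0274). Alpl was at 1.06 and 1.40 CPM in MEF and at 33.5 and 6.33 CPM at day 3 (3.99 ± 1.06, adjusted p = 0.00958). In all of these genes both day-3 libraries lay above both MEF libraries, with 0824 the higher. Trim71 rose by 1.99 ± 0.46 (adjusted p = 0.00384) and Tfcp2l1 by 2.01 ± 0.63 (adjusted p = 0.0228). Zfp296 (5.72 and 3.25 CPM at day 3, adjusted p = 0.0555) and Nr0b1, the nuclear receptor Dax1 (3.92 and 0.723 CPM, adjusted p = 0.057), were not called. Without the library 0824 of either MEF or Flag DMSO day 3, 4 genes were called.

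Klf2 and Lefty1 fell, 2 of the 5 genes with the most counts in MEF. Klf2 dropped from 48.4 and 32.6 CPM to 2.12 and 2.53 CPM (-4.11 ± 0.53, adjusted p = 3.83e-05). Lefty1 had 25 counts in MEF and 2 at day 3, a ratio of 0.0667 with a counting interval from 0.00766 to 0.268 (adjusted p = 0.00864). Klf5 was at 19.09 and 22.4 CPM in MEF and at 6.21 and 8.86 CPM at day 3 and was not called (-1.46 ± 0.55, adjusted p = 0.0551), nor was Tbx3 (-0.53 ± 0.43, adjusted p = 0.388), while Trim71 rose. Summed fibroblast genes fell at the same time, from 61134 and 57420 CPM to 6599 and 9906 CPM. The sum of 10 genes known from keratinocytes, 6 of them called higher, went from 42.4 and 48.3 CPM to 230 and 219 CPM. The part of both in the result was not tested. In bulk RNA, fewer cells of a kind and less RNA per cell cannot be told apart, here and throughout.

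Promoter windows were compared for their number of CpG. Of the genes called higher at day 3, those with a window held 28 (Fgf4), 26 (Alpl), 21 (Tfcp2l1) and 19 (Trim71), where the median of all windows was 7. Among the windows of genes not called at day 3 the number ran from 2 (Nr5a2, a nuclear receptor) to 27 (Gbx2), with 4 in Nanog, 7 in Esrrb, 7 in Tdgf1 and 19 in Zfp296. Utf1 with 17 and Foxd3, a forkhead factor, with 25 were below 1 CPM in both Flag DMSO libraries of day 3. Klf2, which fell, held 32. This was noticed after the values were seen and is given as a description.

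Between day 3 and day 8 more of the set was detected, and few of the changes passed the test. The number of the 33 genes at or above 1 CPM was 12 and 11 in Flag DMSO at day 3 and 18 and 12 at day 8, whereas Flag Vc went from 15 and 12 to 32 and 21. Tet1CD cells went from 11 and 16 to 28 and 19 with DMSO and from 15 and 12 to 32 and 29 with Vc. Without a block, 1 gene was called in these 4 comparisons, Klf2 in Flag cells with Vc (2.74 ± 0.56, adjusted p = 0.019). Without the library 0824 or 0826 of Flag Vc day 3, or 0824 of Flag Vc day 8, it was 0 there. In that fit 1.14% of all genes tested were called for Flag DMSO, 1.38% for Flag Vc, 0.0536% for Tet1CD DMSO and 0.148% for Tet1CD Vc. At an unadjusted p under 0.05 the members numbered 6, 21, 12 and 22 in this order. DESeq2 called 2, 5, 1 and 9 members and limma 0, 1, 0 and 1. No share of all genes is set beside these counts, so no excess over the background is read from them. Of the separate list, 1, 3, 0 and 3 of 24 genes were called, all higher.

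Both day-8 libraries lay above both day-3 libraries for 17 of the 33 genes in Flag DMSO (20.2% of all genes tested), 23 in Flag Vc (21.2%), 16 in Tet1CD DMSO (20.6%) and 29 in Tet1CD Vc (19.8%), and the reverse held for none of them. Another cell type's genes moved in the same comparisons. Of the 10 keratinocyte genes, 4 were called higher in Flag DMSO, 4 in Flag Vc and 0 in both Tet1CD comparisons. Their sum went from 230 and 219 to 869 and 398 CPM in Flag DMSO and from 249 and 242 to 938 and 382 CPM in Flag Vc. In Tet1CD cells it went from 214 and 231 to 709 and 280 CPM with DMSO and from 359 and 369 to 378 and 309.95 CPM with Vc. Krt6a, a keratin of activated keratinocytes, went from 4.41 and 4.70 to 174 and 58.0 CPM in Flag DMSO, and Krt5, a basal keratin, stayed below 9 CPM in each library at day 8. Their part in the result was not tested.

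With DMSO in Flag cells, Tfcp2l1 went from 5.55 and 3.62 to 17.3 and 17.2 CPM (1.90 ± 0.46, adjusted p = 0.052) and Fgf4 from 9.47 and 3.62 to 29.3 and 22.0 CPM (1.96 ± 0.53, adjusted p = 0.0897). Alpl went from 33.5 and 6.33 to 73.5 and 66.3 CPM (1.80 ± 0.77, adjusted p = 0.366). For each of these genes both day-8 libraries lay above both day-3 libraries, and none passed the test. Nanog went from 3.10 and 1.27 to 11.7 and 3.50 CPM, while Esrrb, Zfp42 and Dppa5a had at most 4 counts over both libraries of Flag DMSO at day 8. In Tet1CD cells with DMSO, Nanog went from 2.48 and 3.08 to 30.3 and 5.78 CPM, and Zfp42 from 0.451 and 0.411 to 2.06 and 1.26 CPM. Esrrb went from 0 and 2.88 to 3.71 and 0.251 CPM there, and Dppa5a from 0 and 4.52 to 3.84 and 1.76 CPM. Both of the last genes were thus lower at day 8 in 0826. Their day-3 values rest on that library alone, which had counts for 29 of the 33 genes, against 19 in 0824. With Vc, Nanog went from 5.69 and 0.208 to 49.9 and 8.38 CPM in Flag cells (3.27 ± 1.10, adjusted p = 0.155) and from 2.30 and 0.234 to 42.9 and 16.8 CPM in Tet1CD cells (4.45 ± 1.24, adjusted p = 0.145). Zfp42 went from 1.33 and 0.208 to 11.2 and 2.40 CPM in Flag cells (adjusted p = 0.0949) and from 0.767 and 0.234 to 11.8 and 4.02 CPM in Tet1CD cells (adjusted p = 0.0908). Esrrb went from 2 to 121 counts in Flag Vc and from 0 to 137 counts in Tet1CD Vc (adjusted p = 0.0917 and 0.114). Dppa5a went from 1 to 153 counts in Flag Vc and from 1 to 177 counts in Tet1CD Vc. In all of these comparisons with Vc the days did not overlap, and the library 0824 of day 8 was the highest. Tbx3 overlapped between the days in all 4 comparisons.

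Libraries of one number deviated together within a day, so within a day the fit with the number as a block is given beside the main one. The blocked fit held only the 24 reprogramming libraries and left out MEF and ESC. The comparison of Vc with DMSO at day 8 in Flag cells asked whether vitamin C alone moved the set. Most of the late genes were higher with Vc in both numbered pairs. In the blocked fit 12 of the 33 were called, none of them lower. Without the block, the edgeR test called 0 members and 0.0% of all genes, DESeq2 and limma also called 0 members, and 12 members had an unadjusted p under 0.05. With the within-day block 12 members rose, where 1.72% of all genes tested were called. The blocked count rested on the libraries numbered 0824: without that of Flag DMSO or of Flag Vc it was 0 (14 and 11 members at an unadjusted p under 0.05), and without the 0826 libraries it was 10 and 11. Higher in both numbered pairs were 23 of the 33 genes, where 27.0% of all genes were.

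Nanog was at 11.7 and 3.50 CPM with DMSO and at 49.9 and 8.38 CPM with Vc. Within each number Vc was higher, but the Vc library 0826 lay below the DMSO library 0824, so the groups overlapped. The blocked log2 fold change was 1.83 ± 0.39 (adjusted p = 0.0161), against 1.88 ± 0.98 (adjusted p = 1) without the block. Esrrb was at 0.429 and 0 CPM with DMSO (3 counts) and at 21.6 and 2.16 CPM with Vc, a 47.3-fold ratio with a counting interval from 15.8 to 233 (adjusted p = 0.00285). Its groups did not overlap, and the same held for Zfp42 and Dppa5a. Zfp42 was at 0.429 and 0.25 CPM with DMSO and at 11.2 and 2.40 CPM with Vc (4.17 ± 0.82, adjusted p = 0.0111). Dppa5a was at 0.572 and 0 CPM with DMSO and at 27.6 and 2.40 CPM with Vc (5.32 ± 1.05, adjusted p = 0.0115). In each of these 4 genes the library 0824 with Vc was the highest.

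Other transcription factors rose as well. Utf1 (chromosome 7, 139943789 to 139945112), a chromatin-bound factor of undifferentiated cells, was at 1.00 and 0 CPM with DMSO and at 24.5 and 1.68 CPM with Vc (4.51 ± 0.53, adjusted p = 0.000387). Otx2, a homeobox factor linked to the step from the naive to the primed state, had 0 counts with DMSO and 7.90 and 0.718 CPM with Vc (at least 17.2-fold higher, adjusted p = 0.00478). Klf2 was at 3.43 and 4.25 CPM with DMSO and at 15.6 and 7.18 CPM with Vc (1.57 ± 0.33, adjusted p = 0.0167). For all 3 the groups did not overlap. Tfcp2l1 (1.06 ± 0.22, adjusted p = 0.0156) and Klf5 (1.04 ± 0.24, adjusted p = 0.0308) changed less. Among Nodal genes, Tdgf1 (chromosome 9, 110939603 to 110946158) was at 1.86 and 0 CPM with DMSO and at 38.5 and 5.03 CPM with Vc (4.36 ± 0.58, adjusted p = 0.000387), and Lefty2, a Nodal inhibitor, rose by 2.84 ± 0.69 (adjusted p = 0.048). Trim71 rose by 0.86 ± 0.16 (adjusted p = 0.00884).

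**Figure D2:**
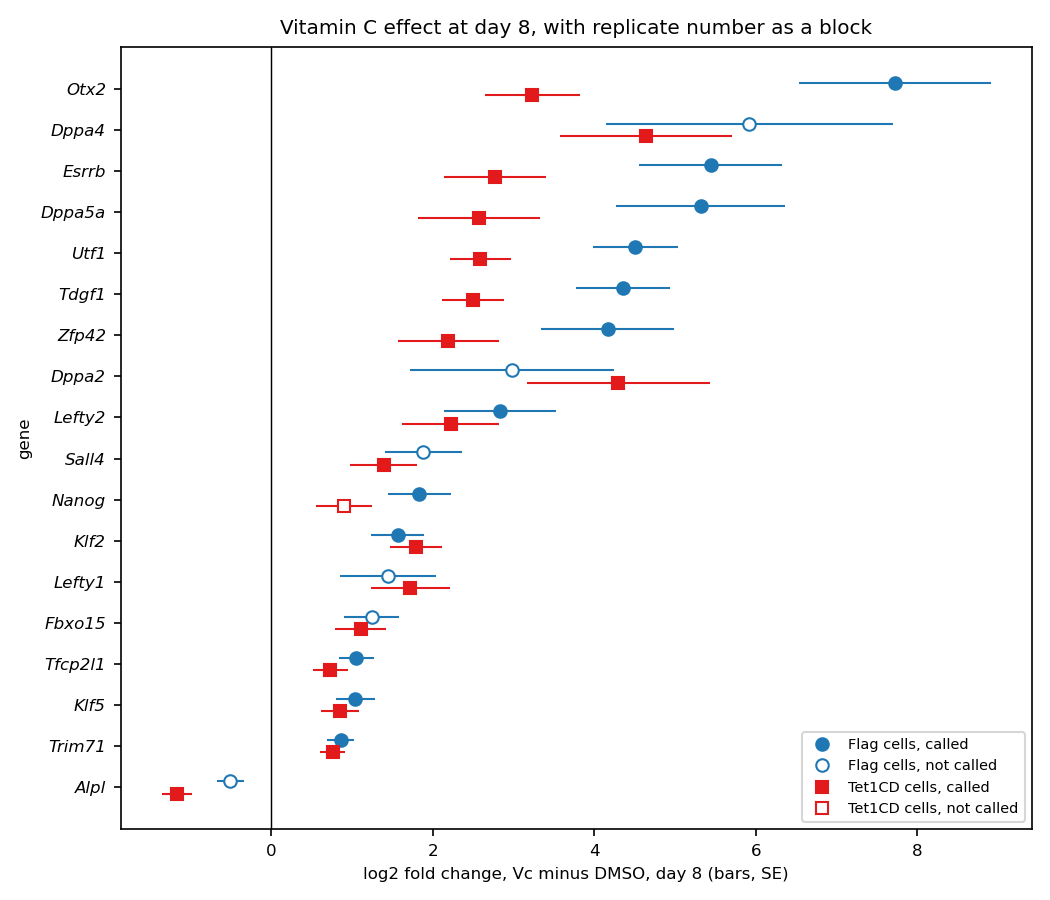
Log2 fold change with Vc against DMSO at day 8 (points, with SE as bars) of the 18 members called in Flag or Tet1CD cells, from the fit with the library number as a block within each day, with filled points called and open points not. All points except those of Alpl, at -0.51 and -1.16, lie to the right of 0, and the fitted value of Otx2 in Flag cells, set against 0 counts, is no bound.

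In Tet1CD cells at day 8, Vc raised 16 of the 33 genes under the block. Without the block 0 members were called by edgeR, DESeq2 or limma (0.168% of all genes by edgeR, and 8 members at an unadjusted p under 0.05). With the within-day block 16 members rose and Alpl fell, where 7.33% of all genes tested were called. Without the library 0824 of Tet1CD DMSO the blocked calls were 2 (Tdgf1 higher and Alpl lower), without 0826 of Tet1CD DMSO 7, without 0824 of Tet1CD Vc 8 and without 0826 of Tet1CD Vc 16. Higher in both numbered pairs were 29 of the 33 genes, where 29.9% of all genes were. Of the 12 genes raised in Flag cells and the 16 raised in Tet1CD cells, 11 were shared, 91.7% of the first list and 68.8% of the second. Both lists come from the same blocked fit and lean on the libraries numbered 0824. No overlap over all genes tested is set beside these shares, so they have no background. Nanog was called in Flag cells, and Dppa2, Dppa4, Fbxo15, Lefty1 and Sall4 in Tet1CD cells, without a test of the difference that reached the threshold.

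Nanog was at 30.3 and 5.78 CPM with DMSO and at 42.9 and 16.8 CPM with Vc (0.91 ± 0.35, adjusted p = 0.127). Esrrb was at 3.71 and 0.251 CPM with DMSO and at 18.5 and 5.48 CPM with Vc (2.77 ± 0.63, adjusted p = 0.0115). The Esrrb groups did not overlap, whereas those of Nanog did. Zfp42 was at 2.06 and 1.26 CPM with DMSO and at 11.8 and 4.02 CPM with Vc (2.19 ± 0.63, adjusted p = 0.0392). Dppa5a was at 3.84 and 1.76 CPM with DMSO and at 22.7 and 8.40 CPM with Vc (2.58 ± 0.75, adjusted p = 0.0441). Both were higher in each Vc library than in each DMSO library.

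Dppa2 and Dppa4, neighbours on chromosome 16 that encode paired SAP-domain chromatin proteins, both rose. Dppa2 was at 0 and 0.503 CPM with DMSO and at 6.06 and 1.64 CPM with Vc, a 22.0-fold ratio with a counting interval from 5.74 to 187 (adjusted p = 0.0317). Dppa4 was at 0.275 and 0 CPM with DMSO and at 6.23 and 1.28 CPM with Vc, a 21.5-fold ratio with a counting interval from 5.60 to 183 (adjusted p = 0.0156). Each rests on 2 counts with DMSO, and neither was called without the library 0824 of Tet1CD DMSO or of Tet1CD Vc, nor Dppa4 without 0826 of Tet1CD DMSO. Germ cell genes, all 8 of which were higher in ESC than in MEF, moved in the same cells. Of the 8 tested, 4 were higher with Vc at day 8 under the block and 1 without it, and their sum with the untested ones went from 8.79 and 12.8 to 48.8 and 59.5 CPM. Dazl, an RNA-binding protein of germ cells, went from 0 and 0 to 8.13 and 7.67 CPM, and Tex19.1 from 1.65 and 1.51 to 12.8 and 14.97 CPM, whereas Sycp3 of the synaptonemal complex was at 0.346 and 0 CPM with Vc. Their part in the result was not tested. Otx2 rose by 3.23 ± 0.59 (adjusted p = 0.00524), Utf1 by 2.59 ± 0.38 (adjusted p = 0.000739), Tdgf1 by 2.50 ± 0.38 (adjusted p = 0.000506) and Lefty2 by 2.22 ± 0.61 (adjusted p = 0.0331). The other genes called higher were Klf2, Lefty1, Sall4, Fbxo15, Klf5, Trim71 and Tfcp2l1, with log2 fold changes from 0.73 to 1.79. Tdgf1 reached 82.7 and 31.2 CPM with Vc, from 22.0 and 3.02 CPM with DMSO. The call of Lefty2 was kept only without 0824 of Tet1CD Vc (3.08) and lost without each other library in turn.

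Over the set, the median log2 ratio of summed counts, Vc over DMSO at day 8, was 1.77 in Flag cells over the 32 members above the floor of 3 counts, of which 30 were above 0. In Tet1CD cells it was 1.08 over 33 members, 32 of them above 0. The medians over all genes were -0.00516 and -0.00699. These sums lean on the libraries numbered 0824. The members' median fitted log2 fold change, 1.79 in Flag cells, was 0.16 without 0824 of Flag Vc, with 19 of 33 above 0 in place of 29. In Tet1CD cells it was 1.30, and 0.41 without 0824 of Tet1CD Vc (22 of 33 above 0 in place of 31), 2.61 without 0824 of Tet1CD DMSO and 0.84 without 0826 of Tet1CD DMSO. With the block, the medians were 1.83 and 1.45, and 0.93 in Flag cells without 0824 of Flag Vc and 1.18 without 0824 of Flag DMSO. The separate pluripotency list had 10 of 24 genes higher and none lower in Flag cells under the block, and 8 higher and 1 lower in Tet1CD cells. Of 8 tested genes known from the primed epiblast, 3 were higher and none lower in Flag cells and 4 higher and 2 lower in Tet1CD cells. Among these, the DNA methyltransferase Dnmt3b was at 9.16 and 6.25 CPM with DMSO and at 53.7 and 12.0 CPM with Vc in Flag cells. In ESC it was higher still, at 159 and 165 CPM. Pou3f1 of the same list was at 1.29 and 1.25 CPM with DMSO and at 9.44 and 3.59 CPM with Vc. Its ESC level was 0.194 and 0.957 CPM. Of the 8 genes, 5 were lower and 1 higher in ESC than in Flag Vc at day 8, without the block. Of 18 fibroblast genes, 5 were lower with Vc and none higher in Flag cells, and 4 lower and 1 higher in Tet1CD cells. Their sum went from 6209 and 12050 CPM to 5144 and 8807 CPM in Flag cells, and from 6394 and 10530 CPM to 4821 and 9499 CPM in Tet1CD cells. Of the 4 introduced factors, 2 were lower with Vc and none higher in Tet1CD cells under the block (median log2 fold change -0.31). In Flag cells 0 of them were called (median -0.17). The part of these markers and factors in the result was not tested.

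At day 3 few members were called for Vc against DMSO. In Flag cells 0 members were called without the block by edgeR, DESeq2 or limma (0.0% of all genes by edgeR, 2 members at an unadjusted p under 0.05), and 1 with the within-day block (0.818% of all genes). That gene was Tfcp2l1, at 5.55 and 3.62 CPM with DMSO and at 14.98 and 11.2 CPM with Vc (1.51 ± 0.29, adjusted p = 0.0131). In Tet1CD cells 0 members were called without the block by the same 3 tools (0.261% of all genes by edgeR, 1 member at an unadjusted p under 0.05), and 1 with it (2.48%), which was Alpl. Nanog, Esrrb, Zfp42 and Dppa5a were not called at day 3 in either virus. In Tet1CD DMSO at day 3, Esrrb had 0 and 14 counts and Dppa5a 0 and 22. With Vc, Esrrb had 0 and 0 counts there and Dppa5a 1 and 0. Few calls do not show that the set stayed still. In Flag cells the median log2 ratio of summed counts at day 3 was 0.907 over the 18 members above the floor. Of these, 15 were above 0. In Tet1CD cells it was -0.0312 over 23 members, 10 of them above 0. The medians over all genes were -0.00215 and -0.0184. The difference between the viruses in these medians was not tested.

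Alpl was the member called lower with Vc. Nr0b1 in Flag cells and Tbx3 in Tet1CD cells were also lower with Vc in both numbered pairs at day 8 and were not called, and in Tet1CD cells at day 3, 6 members were lower in both pairs and 5 higher. At day 3 in Tet1CD cells it was at 24.4 and 11.1 CPM with DMSO and at 9.78 and 3.74 CPM with Vc (-1.47 ± 0.26, adjusted p = 0.00236, within-day block). At day 8 it was at 48.9 and 37.4 CPM with DMSO and at 22.0 and 16.6 CPM with Vc (-1.16 ± 0.19, adjusted p = 0.000715). In Flag cells at day 8 it was at 73.5 and 66.3 CPM with DMSO and at 50.9 and 47.4 CPM with Vc, a difference of -0.51 ± 0.17 that was not called (adjusted p = 0.156). At day 8 the Vc libraries lay below the DMSO libraries of the same virus without overlap. Alpl (chromosome 4, 137741733 to 137796384) was at its highest among the day-8 groups in Flag DMSO. In ESC it was higher still, at 409 and 1089 CPM.

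**Figure D3:**
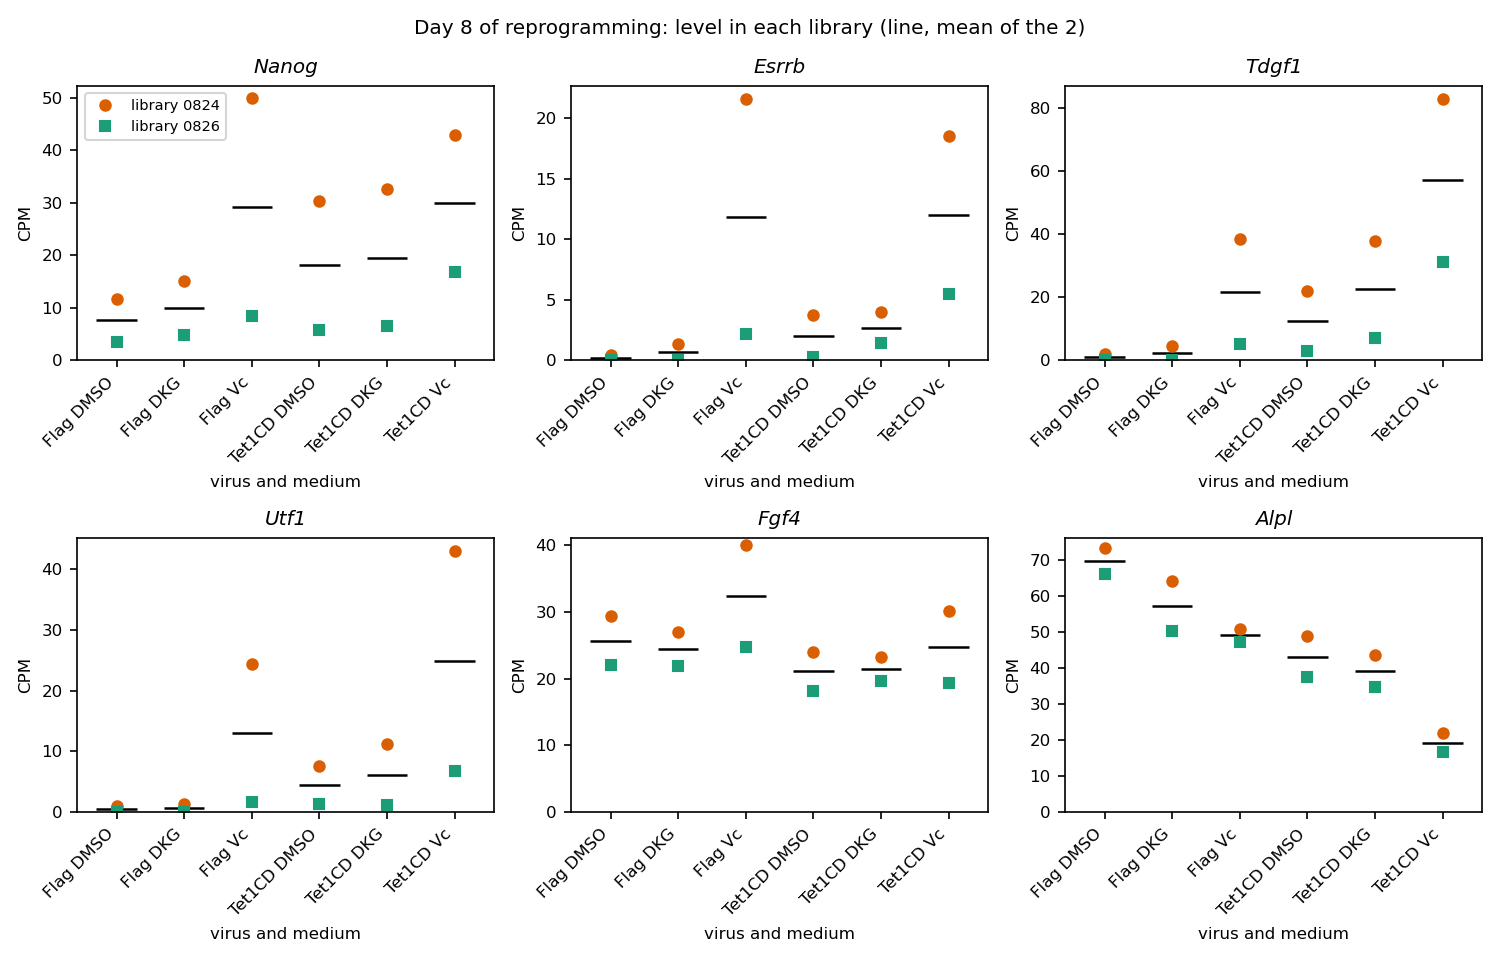
CPM of Nanog, Esrrb, Tdgf1, Utf1, Fgf4 and Alpl in each library at day 8, by virus and medium, with 0824 and 0826 as separate symbols and a line at the mean of the 2. Within each virus the Vc library is the highest of its number for Nanog, Esrrb, Tdgf1 and Utf1, and Alpl is lowest in Tet1CD cells with Vc, at 22.0 and 16.6 CPM.

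The comparison of Tet1CD with Flag at the same medium and day asked what the Tet1CD virus added. Without the block 0 members were called in all 4 comparisons by edgeR, DESeq2 or limma. The background by edgeR was 0.00671% (DMSO, day 3), 0.0469% (DMSO, day 8), 0.469% (Vc, day 3) and 0.235% (Vc, day 8), and 0, 1, 1 and 0 members had an unadjusted p under 0.05. With the within-day block 0 members were called with DMSO at day 3 (0.516% of all genes). At day 8 with DMSO 3 were higher and 1 lower (3.79%). With Vc, 1 was higher and 3 lower at day 3 (15.7%) and 2 were higher and 1 lower at day 8 (12.3%), shares at or below the background.

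With DMSO at day 8, Tdgf1 was at 1.86 and 0 CPM in Flag cells and at 22.0 and 3.02 CPM in Tet1CD cells (3.60 ± 0.60, adjusted p = 0.00161). Utf1 was at 1.00 and 0 CPM in Flag cells and at 7.55 and 1.26 CPM in Tet1CD cells (3.07 ± 0.57, adjusted p = 0.00704). Neither gene overlapped between the viruses. Under the block and without the library 0824 of Tet1CD DMSO, the calls of both were lost, with Tdgf1 at 3.11 and Utf1 at 3.61. Without 0824 of Flag DMSO the call of Utf1 was lost as well, and Tdgf1 was at 7.42. Without either library 0826 both calls were kept, with Tdgf1 at 3.42 (Flag DMSO) and 3.73 (Tet1CD DMSO). Otx2 had 0 counts in Flag cells and 1.92 and 0 CPM in Tet1CD cells (at least 4.55-fold higher, adjusted p = 0.0473), and all of its counts came from 1 library. Alpl was lower in Tet1CD cells (-0.69 ± 0.17, adjusted p = 0.0244). Under the block its call was kept only without 0824 of Flag DMSO (-0.78), and that of Otx2 was lost without each library in turn. Nanog, Esrrb, Zfp42 and Dppa5a were not called, although 19 of the 33 genes were higher in both numbered pairs, where 28.2% of all genes were.

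With Vc at day 8 Tdgf1, Utf1 and Alpl were called again. Tdgf1 was higher in Tet1CD cells by 1.74 ± 0.37 (adjusted p = 0.00407), Utf1 by 1.15 ± 0.34 (adjusted p = 0.0354), and Alpl was lower (-1.35 ± 0.19, adjusted p = 0.000106). The call of Utf1 was lost without each of the 4 libraries under the block (0.88 to 1.85), and without the block its value turned from 0.92 to -0.96 without 0824 of Tet1CD Vc. Tdgf1 under the block lay between 1.14 and 2.52 and was not called without 0826 of Flag Vc (1.48, adjusted p = 0.0674). Alpl was called in each of these 4 fits. Keratinocyte genes were lower in Tet1CD cells at day 8 in 2 of 10 cases with DMSO and 4 of 10 with Vc, and germ cell genes were higher in 1 and 3 of 8, under the block, and their part was not tested. With Vc at day 3, Dppa2 had 0 counts in Flag cells and 3.64 and 1.87 CPM in Tet1CD cells (at least 9.55-fold higher, adjusted p = 0.0128). Nr0b1 (-2.39 ± 0.54, adjusted p = 0.00522), Tdh (-1.39 ± 0.28, adjusted p = 0.00224) and Alpl (-1.36 ± 0.26, adjusted p = 0.00142) were lower there. The 4 introduced factors summed, with vector and endogenous reads together, to 4863 and 8128 CPM in Flag DMSO and to 3410 and 4747 CPM in Tet1CD DMSO at day 8. With Vc they summed to 4338 and 7148 CPM and to 2895 and 3675 CPM, and all 4 were lower with Tet1CD under the block in both media. Their part in the result was not tested.

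Whether the effect of Vc depended on the virus was tested as an interaction. At day 3 and at day 8, 0 members were called without the block by edgeR, DESeq2 or limma (0.101% and 0.0201% of all genes by edgeR) and 0 with it (0.389% and 0.168%). At an unadjusted p under 0.05 there were 0 and 0 members without the block and 6 and 5 with it, and the 5 at day 8 were Esrrb, Utf1, Otx2, Tdgf1 and Alpl. Their fitted differences, Vc effect in Tet1CD minus that in Flag cells, were below 0, as in Utf1 (-1.92 ± 0.68, adjusted p = 0.39) and Tdgf1 (-1.86 ± 0.74, adjusted p = 0.419). For Nanog the difference was -0.93 ± 0.52 (adjusted p = 0.579). The direction over the set rested on single libraries. Without the block the members' median difference was -0.66 with 6 of 33 above 0, and it was 0.68 with 24 above 0 without 0824 of Flag Vc and 0.48 with 22 above 0 without 0824 of Tet1CD DMSO. Without each of the other 6 libraries it lay between -1.56 and -0.26. With the block it was -0.44, and 0.10 with 19 above 0 without 0824 of Flag Vc, -0.07 without 0824 of Flag DMSO and -0.19 without 0824 of Tet1CD Vc. Without 0826 of Tet1CD Vc, 1 member was called under the block, Tdgf1 (-2.52, adjusted p = 0.02). No direction is therefore given for the dependence on the virus.

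DKG gave no call among the members. Averaged over both viruses, 0 members were called at day 3 and at day 8, without the block by edgeR, DESeq2 or limma (0.0% and 0.0% of all genes by edgeR) and with the within-day block (0.0% and 0.0%). At an unadjusted p under 0.05 there were 0 and 0 members without the block and 0 and 2 with it, Otx2 and Tdgf1 at day 8. Nanog at day 8 was at 15.1 and 4.83 CPM in Flag DKG and at 32.6 and 6.48 CPM in Tet1CD DKG (0.25 ± 0.28, adjusted p = 0.946, block). Zfp42 differed by 0.57 ± 0.74 (adjusted p = 0.957), Esrrb by 1.03 ± 0.72 (adjusted p = 0.9) and Dppa5a by 1.25 ± 0.87 (adjusted p = 0.896). The median log2 ratio of the members was 0.0104 in Flag cells and 0.202 in Tet1CD cells at day 8, where Vc had given 1.77 and 1.08.

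At day 8 most members were higher in the libraries numbered 0824. Of the 33 genes, 27 were higher in 0824 than in 0826 in Flag DMSO, 30 in Flag Vc, 26 in Flag DKG, 28 in Tet1CD DMSO, 31 in Tet1CD Vc and 28 in Tet1CD DKG. Over all genes tested the shares were 52.3%, 52.0%, 50.6%, 50.8%, 49.6% and 49.8% in this order. Tdgf1 in Flag Vc was at 38.5 CPM in 0824 and at 5.03 CPM in 0826, and Esrrb at 21.6 and 2.16 CPM. Klf5 and Tbx3 went the other way: Klf5 was at 18.7 and 35.2 CPM and Tbx3 at 11.8 and 17.5 CPM in the same libraries. The labels do not say what the numbers stand for. In every group of day 8, 0826 held more of the fibroblast genes and more of the introduced factors (2895 to 4863 CPM in 0824 and 3675 to 8128 CPM in 0826 for the latter). Their part in the difference was not tested.

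The distance left to ESC was measured last. Between ESC and Flag cells with Vc at day 8, 29 of the 33 genes were higher in ESC and none lower, where 39.8% of all genes tested were called. Leaving out ESC library 0822, the one with fibroblast genes, gave 26, and leaving out Flag Vc 0826 gave 20. Nanog was higher in ESC by 4.25 ± 1.00 (adjusted p = 0.00298), Zfp42 by 4.79 ± 0.73 (adjusted p = 0.000103), Esrrb by 5.45 ± 1.02 (adjusted p = 0.000552) and Dppa5a by 6.17 ± 1.10 (adjusted p = 0.000436). Tcl1, a cofactor of the kinase Akt, had 0 counts in Flag Vc, and Calcoco2 differed by 6.96 ± 0.72 (adjusted p = 2.28e-06). The smallest called differences were those of Klf5 (2.39 ± 0.53, adjusted p = 0.00199) and Fgf4 (2.57 ± 0.50, adjusted p = 0.000797). Not called were Otx2 (0.83 ± 1.39, adjusted p = 0.669), Utf1 (1.41 ± 1.33, adjusted p = 0.428), Sox15 (2.05 ± 1.25, adjusted p = 0.214) and Eras (adjusted p = 0.983).

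As a share of the mean ESC level, the median member stood at 2.10% and 0.444% in Flag DMSO at day 8, at 9.5% and 2.45% in Flag Vc, at 6.52% and 1.47% in Tet1CD DMSO and at 11.6% and 6.05% in Tet1CD Vc. With DKG it was 3.11% and 0.367% in Flag cells and 6.96% and 2.11% in Tet1CD cells. The members were spread widely around these medians. Utf1 reached 69.9% and 4.79% of the ESC level in Flag Vc and 123% and 19.3% in Tet1CD Vc. Otx2 reached 102% and 9.25%, and 192% and 30.6%. Tdgf1 reached 18.7% and 2.45%, and 40.3% and 15.2%. Both Utf1 and Otx2 are low in ESC and differ between its libraries. Eras, at 199% and 0% in Flag Vc, rests on 15 counts over both ESC libraries, the fewest of the set in ESC.

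At the low end, Dppa5a, the highest of the members per length in ESC, stood at 2.49% and 0.217% of its ESC level in Flag Vc and at 2.05% and 0.760% in Tet1CD Vc. Calcoco2 stood at 1.24% and 0.279%, and at 1.72% and 0.639%. Tcl1 had no count in Flag Vc and stood at 1.5% and 0.527% in Tet1CD Vc. At day 8 with Vc, 32 and 21 members in Flag cells and 32 and 29 in Tet1CD cells had more than 3 counts. Few were near the ESC level: 3 and 0 members were at or above 50% of it in Flag Vc, and 4 and 1 in Tet1CD Vc. Some values rest on shared sequence. RSEM gave Nanog counts that were not whole in 26 libraries, Trim71 in 14 and Lefty1 and Lefty2 in 13, which shows reads shared with other loci. Eras, Sox15 and Zfp296 overlap the genes Pcsk1n, Mpdu1 and Gemin7 on the opposite strand. The strand used in counting is not given in the sources used here. Reads from bases that both genes of a pair cover may therefore not be told apart.

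**Figure D4:**
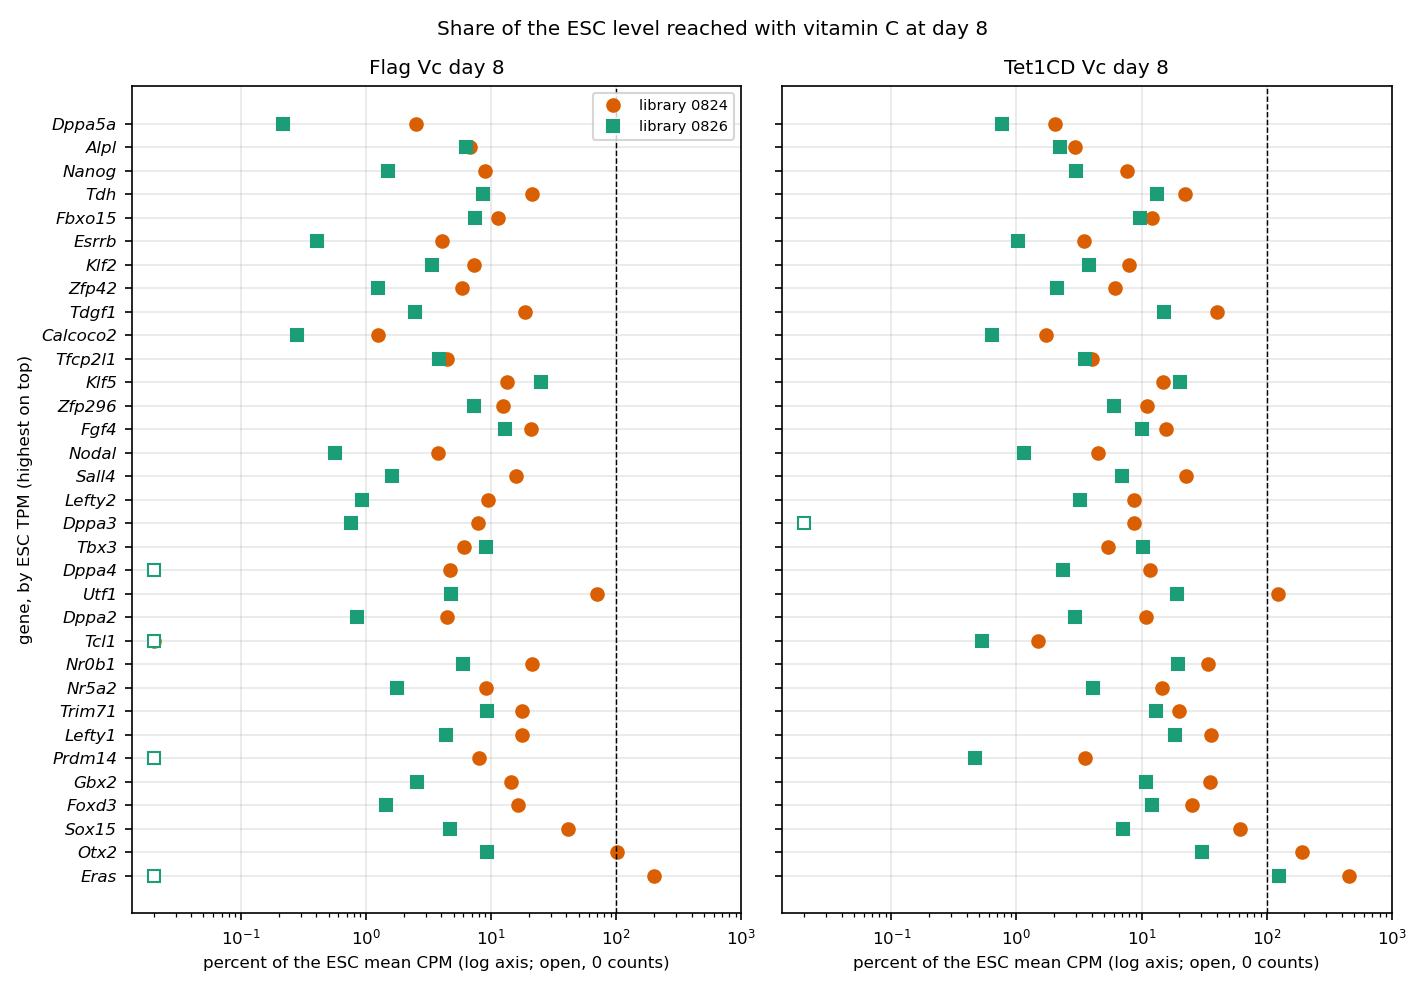
Level of each member as a percentage of its mean ESC level (log axis) at day 8 with Vc, for Flag and Tet1CD cells, with the libraries 0824 and 0826 as separate symbols and genes ordered by their ESC level in TPM. Most members lie between 1% and 50%, Utf1, Otx2 and Eras reach or pass 100% in a library, and Dppa5a at the top of the order lies near 2% or below.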

How the data were processed

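RNA-seq of 31 libraries was used, prepared with Trizol and a TruSeq RNA kit from 1 ug of RNA, per the labels' protocols. The tools were Bowtie and RSEM on mm10, per the submitters' processing notes, with versions, annotation release and counting strand not given in the sources used here. The authors deposited RSEM gene tables, which per the file headers hold expected counts beside TPM and FPKM. The deposited FPKM were not used. RSEM apportions multi-mapping reads, so such counts are estimates.

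Expected counts were rounded. Of 29267 gene identifiers, 28756 matched GENCODE mouse release 21, which gave symbols and coordinates (1-based, mm10), and the other 511 held at most 0.392% of a library's counts. The 28 libraries of the 14 groups of 2 entered 1 fit of edgeR's quasi-likelihood test (two-sided; R 4.3.3, edgeR 4.0.16, limma 3.58.1) with TMM scaling (factors 0.849 to 1.08), 1 mean per group and no block, on the 14914 genes passing filterByExpr, which all 33 members did. Every adjusted p is Benjamini-Hochberg over all genes tested, and a gene was called under 0.05. Member counts at an unadjusted p, by DESeq2 or limma, or with a library left out stand without the share of all genes. So do member counts between days under the block, with the block over all numbers, without the filter or on only the groups compared. No excess over the background is read from them. SE was obtained as the log2 fold change divided by the root of F. The script was tested on simulated data. DESeq2 1.42.0, limma on log2(TPM + 1) from the deposited TPM, and the other alternatives are given in the closing section.

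Whether the numbers 0824 and 0826 pair libraries was checked by correlating the 0824 minus 0826 differences of each group across genes. The correlations were 0.357 to 0.504 between groups of day 3 (15 pairs) and 0.343 to 0.689 between groups of day 8 (15 pairs). They were -0.00867 to 0.178 across days (36 pairs) and -0.0105 to 0.306 between MEF and the other groups (12 pairs). The numbers were therefore taken to pair libraries within a day. Across days and with MEF the correlations were lower, although the highest with MEF, 0.306, came near the lowest within a day, 0.343. The blocked value stands beside each within-day result whose call it changed. For day 8 minus day 3 the within-day block removes the spread between numbers that this contrast needs, so those blocked values, and the block over all numbers, stand only in the closing section. Leaving out each day-8 library under the block was added after the data were seen. Common dispersion fell from 0.0817 without the block to 0.00895 with it. A fold against 0 counts is a lower bound against 3 counts over the group, and against 1 to 3 counts it has a 95% counting interval.

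The members, lists and tests were chosen with earlier results of these data known. In most comparisons Nanog, Esrrb, Zfp42 and Dppa5a were named, with called members by size of change. These numbered up to 25 in ESC minus MEF and in Vc minus DMSO in Flag cells at day 8, and up to 10 elsewhere. This order was not kept throughout, and the interaction is given without values for Zfp42 and Dppa5a. Other members and genes named were chosen after their values were seen. The ESC files carry the numbers 0822 and 0819 the other way round from their titles, so which passage each is remains uncertain. The title of the fibroblast library labelled DKG names 2DG, so its compound is uncertain. Promoter windows came from RefSeq (GRCm38.p6), and no protein sequences were used here.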

Additional observations from a re-analysis of the deposited data

Results flagged for a closer look

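The 3 single fibroblast libraries kept for 3 days with DMSO, Vc or DKG entered no comparison. In the one with Vc, Klf2 was at 84.12 CPM (95% counting interval 75.11 to 93.91), where the highest of untreated MEF and MEF with DMSO had 48.35 CPM (upper limit 55.05). Alpl was at 5.573 CPM (3.449 to 8.518) in the same library, against at most 1.524 CPM (upper limit 3.003) in those controls. Both stand out as values in data outside the comparisons, above the level of the controls. Klf2 in the library labelled DKG was at 55.8 CPM. The Vc library also held 12.7 CPM of Pou5f1 and 6.90 CPM of Sox2, against at most 4.40 and 2.97 CPM in the other fibroblast libraries. There is 1 library of each kind, so none of these values has a replicate, and their part in the levels of Klf2 and Alpl was not tested.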

How the results depend on the processing

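With the within-day replicate block the members called rose from 0 to 1 (Vc minus DMSO at day 3, in Flag and in Tet1CD cells), from 0 to 12 and 17 (the same at day 8), from 0 to 4, 4 and 3 (Tet1CD minus Flag with DMSO at day 8, with Vc at day 3 and with Vc at day 8), and from 0, 1, 0 and 0 to 8, 20, 12 and 24 (day 8 minus day 3 in Flag DMSO, Flag Vc, Tet1CD DMSO and Tet1CD Vc). The p-values behind these 4 last counts are too small. They leave out the spread between numbers within a day, which a contrast between days needs. The blocked fit also left out MEF and ESC, so the rises may not come from the block alone. With the replicate block over all numbers these 4 last counts were 4, 14, 5 and 18. Flag DMSO day 3 minus MEF gave 11 there in place of 8. Differences of MEF correlated less with those of the other groups (-0.0105 to 0.306) than groups of the same day did. No share of all genes is set beside the blocked counts between days or those of the block over all numbers. No excess over the background is read from either. No pairing was possible for ESC, whose numbers differ. DESeq2 gave 2, 5, 1 and 9 for the day comparisons, no filter on low counts 2, 5, 0 and 11, limma on log2(TPM + 1) 1 in Tet1CD Vc, and the fit of only the groups compared 0 in Flag Vc and 18 in place of 29 for ESC minus Flag Vc day 8. Leaving out 1 library at a time gave 29 to 32 for ESC minus MEF, 4 to 9 for Flag DMSO day 3 minus MEF, 0 to 1 for the day comparison in Flag Vc, 0 to 5 in Tet1CD Vc (5 without Tet1CD Vc day 8 0826) and 20 to 28 for ESC minus Flag Vc day 8, and 0 for each other count. With the within-day block, a choice made after seeing the data, leaving out 1 day-8 library gave 0 to 11 for Vc minus DMSO in Flag cells (10 without Flag DMSO 0826), 2 to 16 in Tet1CD cells (7 without Tet1CD DMSO 0826, 8 without Tet1CD Vc 0824), 0 to 2 for Tet1CD minus Flag with DMSO, 1 to 3 with Vc and 0 to 1 for the interaction. For Klf2, the call in Flag Vc rests on the libraries Flag Vc day 3 0824 and 0826 and Flag Vc day 8 0824, since without each of them 0 members were called. Leaving out 1 library turned 2 values. The log2 fold change of Otx2: Tet1CD minus Flag with DMSO at day 8, a fitted value against 0 counts and no bound, ran from 0 (without Tet1CD DMSO day 8 0824) to 6.34. The log2 fold change of Utf1: Tet1CD minus Flag with Vc at day 8 ran from -0.96 (without Tet1CD Vc day 8 0824) to 3.88. The cause was not tested. DESeq2 size factors in edgeR moved no call. With the deposited TPM, 3 of 66 shares of the ESC level moved by more than the spread. At 2 libraries a group and at most 6818060 counts, changes of genes below 1 CPM were not resolved. Members with 0 called by edgeR, DESeq2 and limma may still differ, since the spread between numbers enters the main fit.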
